A study of Sus scrofa with 16 samples.

Results

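The 9 genes followed here belong to blood and lymph vessel endothelium and were measured in the small intestine of preterm piglets: PECAM1, CDH5, VWF, TEK, EGFL7, LYVE1, AQP1, VCAM1 and ICAM1. They were taken by gene symbol, which gave 9 of 6765 annotated genes and 18 of the 23999 probe sets on the array that are not controls. PECAM1, CDH5, VWF, TEK and EGFL7 (11 probe sets) were grouped as structural genes, VCAM1 and ICAM1 as inducible adhesion genes (2 probe sets), and LYVE1 (3 probe sets) and AQP1 (2 probe sets) were kept apart as a lymphatic gene and a water channel.

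Endothelial cells line every vessel and are held together by junction proteins that they make at all times, among them PECAM1 and CDH5. Cytokines that act through the transcription factor NF-kB add a further layer to their surface, in which VCAM1 and ICAM1 are bound by the integrins of passing leukocytes and help them out of the blood. In the gut this traffic runs through capillaries and venules of the mucosa, while the lymph vessels of the villi and submucosa carry absorbed fat and returning leukocytes away.

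The treated piglets received Ampicillin, Gentamycin and Metronidazol by mouth and into muscle, 2 times a day from birth, and the control piglets received saline at the same times. All piglets were born preterm by caesarean section on gestation day 105, were crosses of Landrace, Large white and Duroc, were given 3 days of parenteral nutrition and 2 days of formula, and were sampled on day 5. The study held 11 antibiotics and 13 control piglets from a pair of sows. The 16 arrays fell into 4 groups of 4: antibiotics distal (piglets 85, 86, 87 and 95), control distal (83, 88, 89 and 92), antibiotics proximal (86, 87, 95 and 98) and control proximal (83, 88, 89 and 92). The number in the sample name was read as the animal's, which makes 9 animals, 7 of them with both segments, and values below follow this order of animals within each group. Tissue pieces were measured whole, so fewer endothelial cells and less RNA per cell cannot be told apart in any difference below. Litter and lesion score per array were not used here.

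Values are GCRMA values on a log2 scale, where 1 unit is a doubling and 2.14 is the floor. A probe set entered the tests when it lay above 5 on at least 4 of the 16 arrays, which 11538 did. The arrays resembled each other in signal: 45.1% to 46.5% of probe sets lay above 5, and the mean correlation of an array with its own group was 0.903 to 0.968. The 5′ minus 3′ difference of control transcripts, a measure of RNA integrity that is more negative in more degraded RNA, averaged -4.70 ± 0.90 in antibiotics distal, -4.28 ± 0.46 in control distal, -3.43 ± 0.65 in antibiotics proximal and -3.79 ± 0.89 in control proximal tissue (SD, n = 4 each). All 11 epithelial marker genes with a probe set passed the filter.

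Of the 18 probe sets 10 passed the filter, 1 for each gene and a second one for LYVE1. The 7 at the lowest level sat at the floor on all 16 arrays, between 2.14 and 2.24: 1 for CDH5, 2 each for VWF and TEK, and 1 each for LYVE1 and AQP1. The remaining one, a second PECAM1 probe set, ranged over 2.75 to 5.17 and passed 5 on 2 arrays. The EGFL7 probe set, for a protein secreted by endothelium that shapes vessel tubes, read 6.19 on 15 arrays and 6.40 on the antibiotics proximal array of piglet 87. It therefore carried no usable variation, like 9 tested probe sets in all that stayed within 0.01 of their lowest value on at least 12 arrays.

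VCAM1, the endothelial ligand of the leukocyte integrin VLA-4, was the member that separated the treatments in distal tissue. It measured 10.40, 10.02, 10.14 and 10.41 in antibiotics distal arrays, against 10.58, 11.47, 13.14 and 11.44 in control distal arrays. All 4 antibiotics arrays lay below all 4 control arrays, and the antibiotics arrays were tightly grouped (10.24 ± 0.20, against 11.66 ± 1.07 in controls; SD, n = 4 each). A gap of this kind was common: 6.31% of all tested probe sets had every antibiotics distal array below every control distal array. The difference was -1.42 with a 95% interval of -2.52 to -0.31, and it did not pass the adjusted threshold of 0.05 (limma adjusted p = 0.185). In proximal tissue VCAM1 measured 10.25, 9.55, 11.13 and 11.89 in antibiotics arrays, against 10.60, 11.13, 12.08 and 11.17 in control arrays. Those groups overlapped, and the difference of -0.54 had an interval of -1.64 to 0.56.

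ICAM1, which the β2 integrins of neutrophils and other leukocytes bind, had a lower mean in the same direction with a wider spread. It measured 4.88, 4.42, 4.70 and 5.48 in antibiotics distal arrays, against 5.30, 5.16, 8.41 and 6.47 in control distal arrays. Several of these values lay under the filter level of 5, and the groups overlapped through piglet 95. Proximal values were 5.03, 4.69, 6.74 and 5.60 in antibiotics arrays, against 4.84, 5.68, 7.87 and 6.99 in control arrays. The difference was -1.46 in distal tissue (SE 0.71, limma adjusted p = 0.337) and -0.83 in proximal tissue (SE 0.71, adjusted p = 0.686). Piglet 89 gave the highest control value of VCAM1 and ICAM1 in both segments. Without its distal array the distal differences were -0.92 for VCAM1 and -0.77 for ICAM1.

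**Figure D1:**
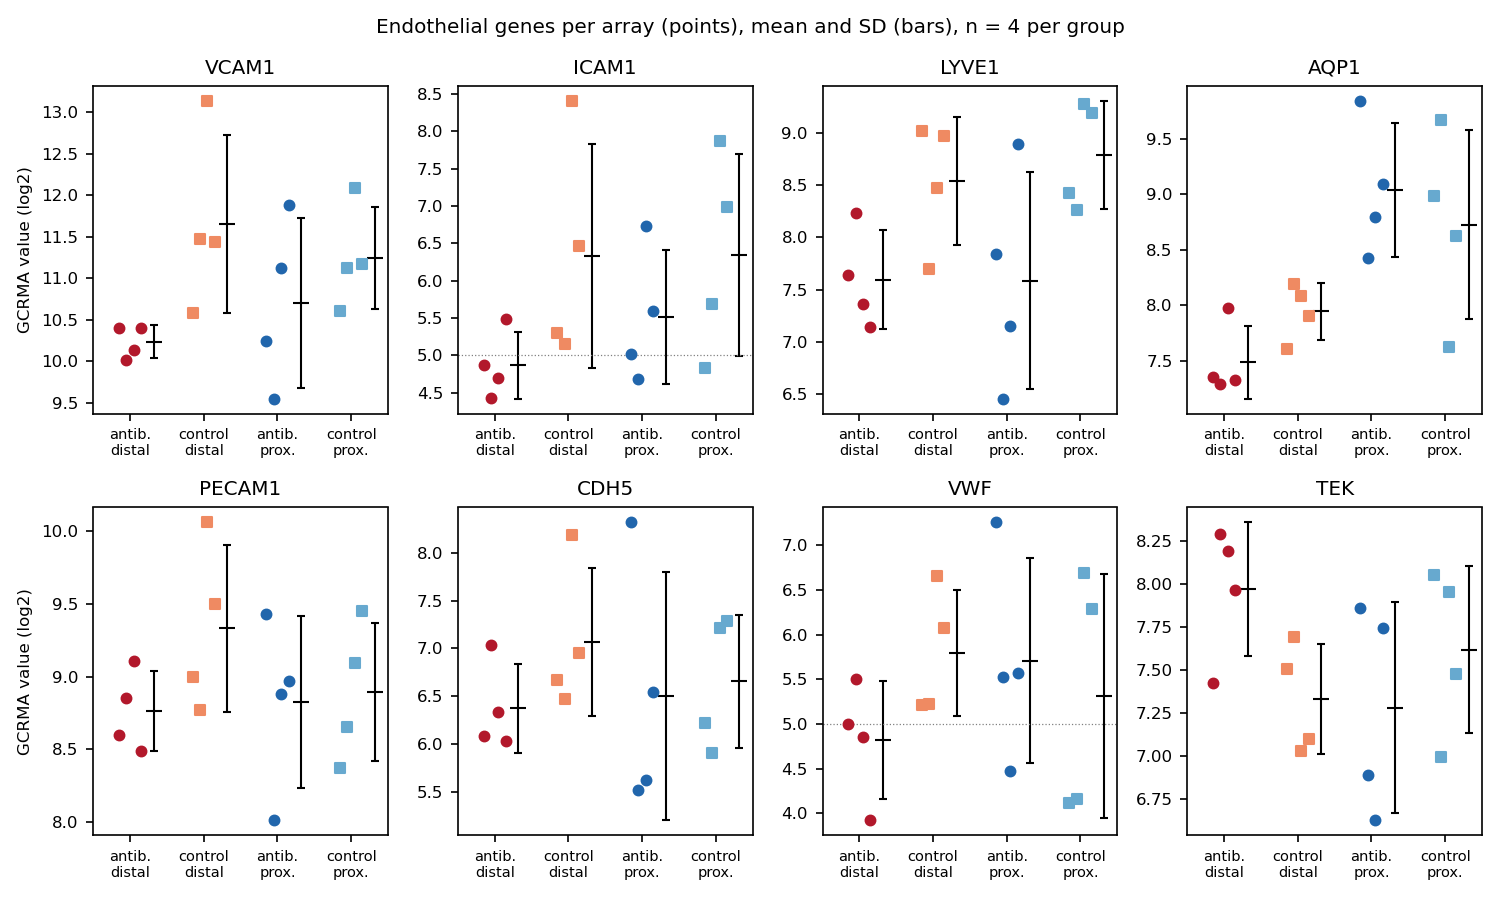
GCRMA values (log2, vertical axes, each gene on its own scale) of 8 endothelial genes in the 4 groups, 1 point per array, with black marks for the mean and SD of 4 arrays; the dotted line is the filter level of 5 where it falls in view. VCAM1 in antibiotics distal tissue lies between 10.02 and 10.41, under every control distal array, and AQP1 is lower in distal than in proximal tissue.

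Among the structural genes no treatment difference passed the test. PECAM1, an adhesion protein of all endothelial contacts that platelets and leukocytes also carry, measured 8.60, 8.85, 9.11 and 8.49 in antibiotics distal arrays, against 9.0, 8.77, 10.06 and 9.50 in control distal arrays. In proximal tissue it measured 9.43, 8.01, 8.88 and 8.97 in antibiotics arrays, against 8.37, 8.65, 9.10 and 9.45 in control arrays. The groups overlapped in both segments, with differences of -0.57 in distal (interval -1.29 to 0.15) and -0.07 in proximal tissue (interval -0.79 to 0.65). The second, dimmer PECAM1 probe set was not tested. It averaged 3.40 ± 0.37 in antibiotics distal and 4.34 ± 0.69 in control distal tissue, and 3.89 ± 1.08 in antibiotics proximal and 3.60 ± 1.11 in control proximal tissue (SD, n = 4 each).

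CDH5, the cadherin of endothelial junctions, measured 6.09, 7.04, 6.34 and 6.03 in antibiotics distal arrays, against 6.67, 6.47, 8.18 and 6.95 in control distal arrays. Proximal values were 8.32, 5.52, 5.62 and 6.54 in antibiotics arrays, against 6.22, 5.91, 7.21 and 7.28 in control arrays. The highest value of all belonged to antibiotics piglet 86 in the proximal segment, and both pairs of groups overlapped. The difference was -0.69 in distal tissue (interval -1.87 to 0.48) and -0.16 in proximal tissue (interval -1.33 to 1.02). Piglet 89 was again the highest control distal array for PECAM1 and CDH5, and without it the distal differences were -0.33 and -0.32.

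VWF, the clotting protein that endothelium stores and releases on injury, had the widest spread of the structural genes. It measured 5.00, 5.51, 4.85 and 3.92 in antibiotics distal arrays, against 5.21, 5.22, 6.65 and 6.07 in control distal arrays. In proximal tissue it measured 7.26, 5.53, 4.48 and 5.57 in antibiotics arrays, against 4.12, 4.17, 6.69 and 6.29 in control arrays. Values close to or under 5 occurred in every group, and the groups overlapped in both segments. The means differed by -0.97 in distal tissue (interval -2.34 to 0.40) and by 0.39 in proximal tissue (interval -0.98 to 1.76). The proximal value turned to -0.12 without the antibiotics proximal array of piglet 86.

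TEK, the endothelial receptor for angiopoietins, was the one structural gene with a higher mean in antibiotics distal tissue. It measured 7.42, 8.29, 8.19 and 7.97 in antibiotics distal arrays, against 7.50, 7.69, 7.03 and 7.10 in control distal arrays. Only piglet 85 among the antibiotics distal arrays fell inside the control range. Proximal values were 7.86, 6.89, 6.63 and 7.74 in antibiotics arrays, against 8.05, 6.99, 7.95 and 7.47 in control arrays. The difference was 0.64 in distal tissue (SE 0.32, limma adjusted p = 0.361) and -0.34 in proximal tissue (SE 0.32, adjusted p = 0.72). The distal effect exceeded the proximal one by 0.98 (SE 0.46, limma adjusted p = 0.75).

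LYVE1, a hyaluronan receptor of lymphatic endothelium that some tissue macrophages also carry, had lower means with antibiotics in both segments. It measured 7.65, 8.23, 7.36 and 7.14 in antibiotics distal arrays, against 9.02, 7.70, 8.47 and 8.97 in control distal arrays. In proximal tissue it measured 7.84, 6.46, 7.16 and 8.90 in antibiotics arrays, against 8.42, 8.27, 9.28 and 9.19 in control arrays. A single array closed each gap: control piglet 88 in distal tissue lay within the antibiotics range, and antibiotics piglet 98 in proximal tissue lay within the control range. The difference was -0.94 in distal tissue (SE 0.46, limma adjusted p = 0.332) and -1.20 in proximal tissue (SE 0.46, adjusted p = 0.293), and neither passed. The dimmer LYVE1 probe set gave -1.07 in distal and -0.68 in proximal tissue, with a SE of 0.73 in both. When each animal was reduced to the mean of its segments, LYVE1 measured 6.91 to 8.04 in the 3 antibiotics animals, against 7.98 to 9.08 in the 4 control animals. The ranges overlapped only at their ends, and the difference of -1.30 (SE 0.35) had the smallest unadjusted p of any member with treatment but did not pass (limma adjusted p = 0.151). VCAM1 came next on animal means, at -1.20 (SE 0.45, limma adjusted p = 0.257).

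**Figure D2:**
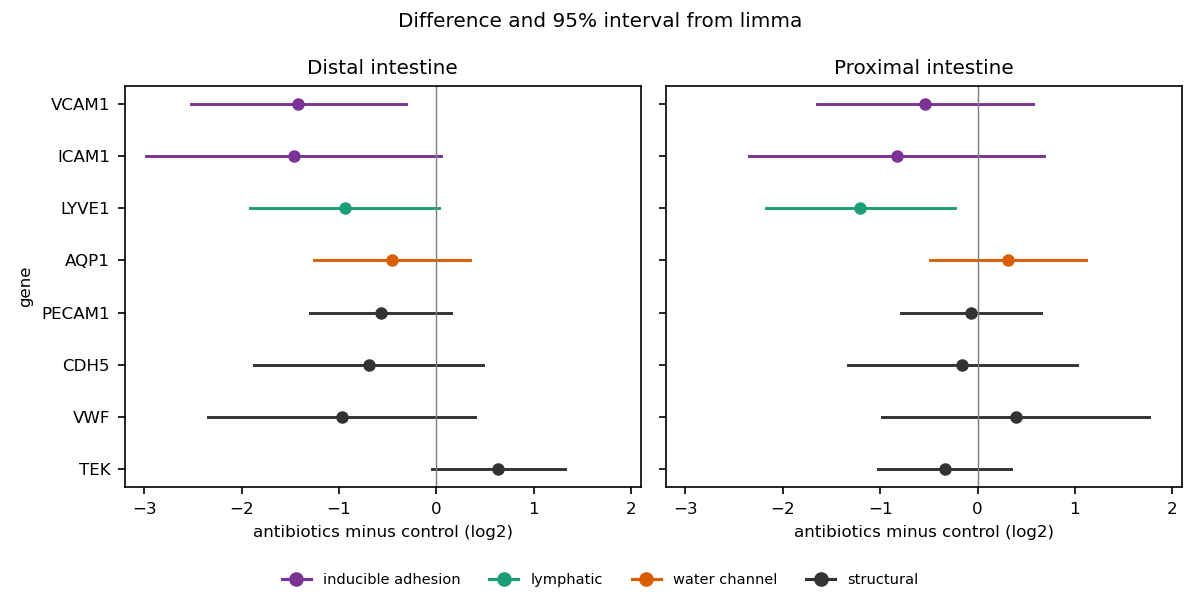
Antibiotics minus control difference (log2, horizontal axes) with its 95% interval from limma for 8 endothelial genes in distal (left) and proximal (right) tissue. The intervals of VCAM1 in distal tissue (-2.52 to -0.31) and of LYVE1 in proximal tissue (-2.17 to -0.24) lie below 0 before adjustment for the number of probe sets.

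Counted together, 0 of the 10 tested probe sets were called with antibiotics in distal tissue, where limma called 2.12% of all tested probe sets, and 0 of 10 in proximal tissue, where it called 0.147%. At an unadjusted p under 0.05 the count was 1 of 10 in each segment, VCAM1 in distal and LYVE1 in proximal tissue, beside 15.8% and 12.9% of all tested probe sets. On animal means 0 of 10 were called (background 0.347%), and 2 of 10 had an unadjusted p under 0.05 (background 16.1%). No member's effect differed between the segments by the adjusted test (0 of 10, background 0.191%), and TEK was the 1 of 10 with an unadjusted p under 0.05 (background 6.62%). These shares are near the background, which leaves the direction of the means to describe. In distal tissue 8 of 10 probe sets had a lower mean with antibiotics (background 49.6%), with a median of -0.82, against a median of 0.00 over all tested probe sets. In proximal tissue it was 7 of 10, with a median of -0.25, beside 6554 of all 11538 tested probe sets. LYVE1 gave 2 of the 10 probe sets, and several members varied together over the same arrays, so these counts do not add up separate observations. Split by role, the distal median was -1.44 over VCAM1 and ICAM1 and -0.63 over PECAM1, CDH5, VWF and TEK. The proximal medians were -0.69 for the adhesion pair and -0.11 for the structural genes, beside -0.07 over all tested probe sets. No test of the adhesion pair against the structural genes was made.

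AQP1, the water channel of capillary and lymphatic endothelium that red cells also carry, was the member that changed along the intestine. In antibiotics piglets it measured 7.35, 7.30, 7.98 and 7.32 in distal arrays, against 9.84, 8.43, 8.79 and 9.09 in proximal arrays. In control piglets it measured 7.61, 8.19, 8.08 and 7.90 in distal arrays, against 8.98, 9.67, 7.62 and 8.63 in proximal arrays. All distal antibiotics arrays lay below all proximal antibiotics arrays, a gap shared by 4.7% of tested probe sets, while in controls piglet 89 had a low proximal value and the segments overlapped. AQP1 fell by 1.17 in distal relative to proximal tissue over all 16 arrays (SE 0.27, interval -1.73 to -0.60, limma adjusted p = 0.0165). It was the 1 of 10 tested member probe sets called between segments, beside 5.52% of all tested probe sets. Within antibiotics piglets the difference was -1.55 (SE 0.38, adjusted p = 0.0243, with 5.25% of all tested probe sets called), and within controls it was -0.78 (SE 0.38, adjusted p = 0.648, with 0.364% called). The difference between these values was -0.77 (SE 0.53) and did not pass (adjusted p = 0.868).

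Distal AQP1 was lower in 6 of the 7 animals with both segments, with -2.55 as the most negative difference, and higher by 0.46 in control piglet 89. RNA integrity moved with the segment, as given above, and when it entered the fit as a covariate the AQP1 difference was -0.89 and no longer passed (adjusted p = 0.108). With each animal as a replicate block over the 7 paired animals it was -1.13 (adjusted p = 0.0698). HBB, the beta globin of red cells and the one erythroid marker above the filter, measured 9.33 to 10.27 in antibiotics distal, 9.72 to 10.53 in control distal, 9.31 to 10.48 in antibiotics proximal and 9.55 to 10.54 in control proximal arrays, and it differed by -0.05 between segments. Epithelial markers moved with the segment: the mean level of 11 genes was 12.52 to 12.70 in antibiotics distal and 12.87 to 13.49 in antibiotics proximal arrays, which did not overlap, and 12.52 to 13.21 in control distal and 13.04 to 13.43 in control proximal arrays, which did. The part of epithelium in the AQP1 difference was not tested. With antibiotics AQP1 differed by -0.46 in distal (interval -1.26 to 0.34) and by 0.31 in proximal tissue (interval -0.49 to 1.11). The other members did not pass between segments, and their differences ran from -0.49 (the dimmer LYVE1 probe set) to 0.20 (TEK).

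**Figure D3:**
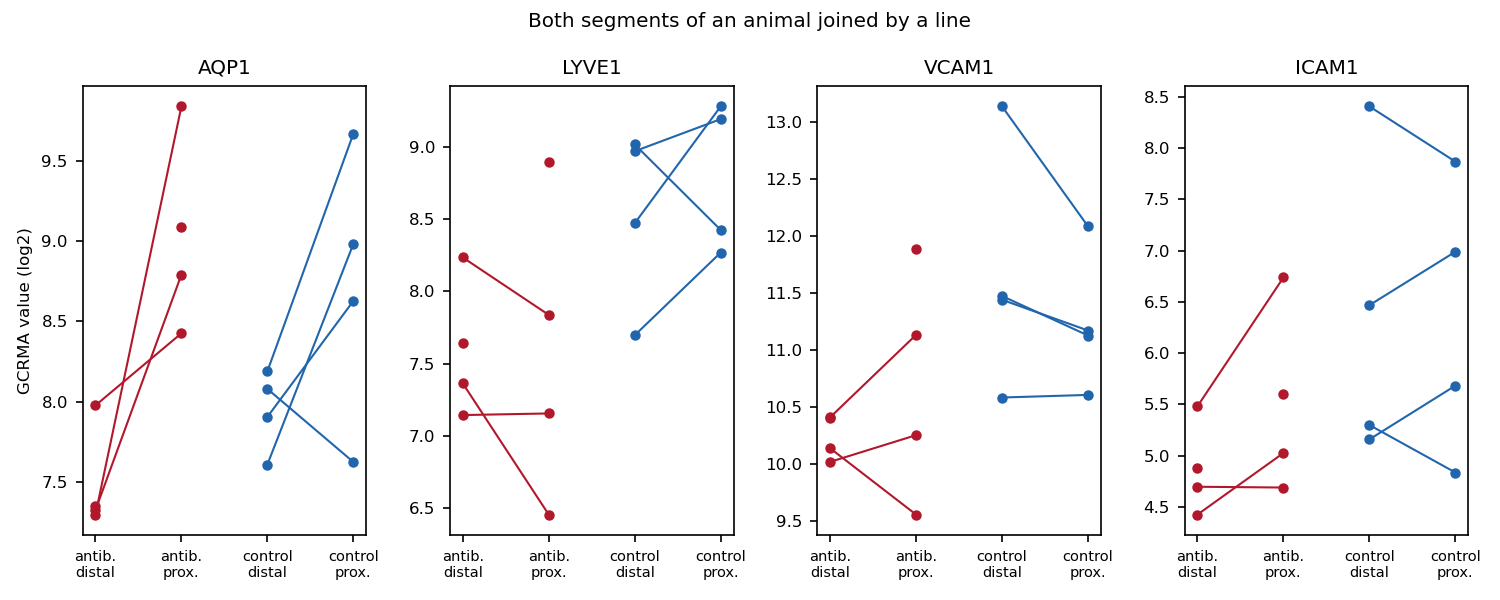
GCRMA values (log2) of AQP1, LYVE1, VCAM1 and ICAM1 in distal and proximal tissue of each piglet, antibiotics in red and control in blue, with a line joining the segments of 1 animal. AQP1 is lower in the distal segment of 6 of 7 animals, whereas LYVE1 is lower there in 4, VCAM1 in 3 and ICAM1 in 4 of 7.

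Some members varied together from array to array. Over the 16 arrays, which share 7 animals, VCAM1 and ICAM1 had r = 0.84 and rho = 0.84, with r = 0.79 after the group means were removed and r = 0.75 without the 2 arrays farthest from the median of VCAM1. CDH5 and VWF had r = 0.84 and rho = 0.79, with r = 0.86 within groups and r = 0.73 without the 2 farthest arrays. PECAM1 and CDH5 had r = 0.83 and rho = 0.79. Between the sets the match depended on the segment. CDH5 had r = 0.44 with VCAM1 and r = 0.43 with ICAM1 over all arrays, made up of 0.78 and 0.79 over the 8 distal arrays and 0.17 and 0.20 over the 8 proximal arrays. VWF with VCAM1 had r = 0.74 in distal and 0.06 in proximal arrays. PECAM1 had r = 0.80 with VCAM1 and r = 0.85 with ICAM1 in distal arrays, and 0.49 and 0.54 in proximal arrays. Over all arrays PECAM1 had r = 0.66 with ICAM1, which was 0.65 within groups and 0.42 without the 2 arrays farthest from the median of PECAM1, and r = 0.64 with VCAM1, which was 0.57 within groups and 0.22 without them. In distal tissue control piglet 89 had the highest value of PECAM1, CDH5, VWF and the adhesion pair, and control piglet 92 was also high in each. Other distal arrays were less alike. Control piglet 88 measured 11.47 for VCAM1 but 8.77 for PECAM1, and antibiotics piglet 86 measured 7.04 for CDH5 but had the lowest VCAM1, 10.02. The 8 distal arrays hold both treatments, and their correlations were not computed within groups or without piglet 89. TEK ran opposite to both sets in distal arrays, with r = -0.61 against PECAM1, -0.64 against VWF, -0.76 against VCAM1 and -0.77 against ICAM1. In proximal arrays it had r = 0.35 with PECAM1, 0.68 with CDH5, 0.29 with VCAM1 and 0.00 with ICAM1. Pooled over segments these values were -0.06 for PECAM1, 0.24 for CDH5, -0.26 for VCAM1 and -0.40 for ICAM1. After the group means were removed, TEK over all arrays had r = 0.10 with PECAM1, 0.45 with CDH5 and 0.30 with VWF. The values with VCAM1 and ICAM1 were then -0.06 and -0.32. AQP1, whose level differed between segments, had pooled values between -0.25 and 0.08 against every other member. Within segments it had r = 0.61 with PECAM1, 0.66 with VCAM1 and 0.48 with ICAM1 in distal arrays, against 0.12, -0.30 and -0.61 in proximal arrays. The difference between the segments was not tested for any of these correlations.

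**Figure D4:**
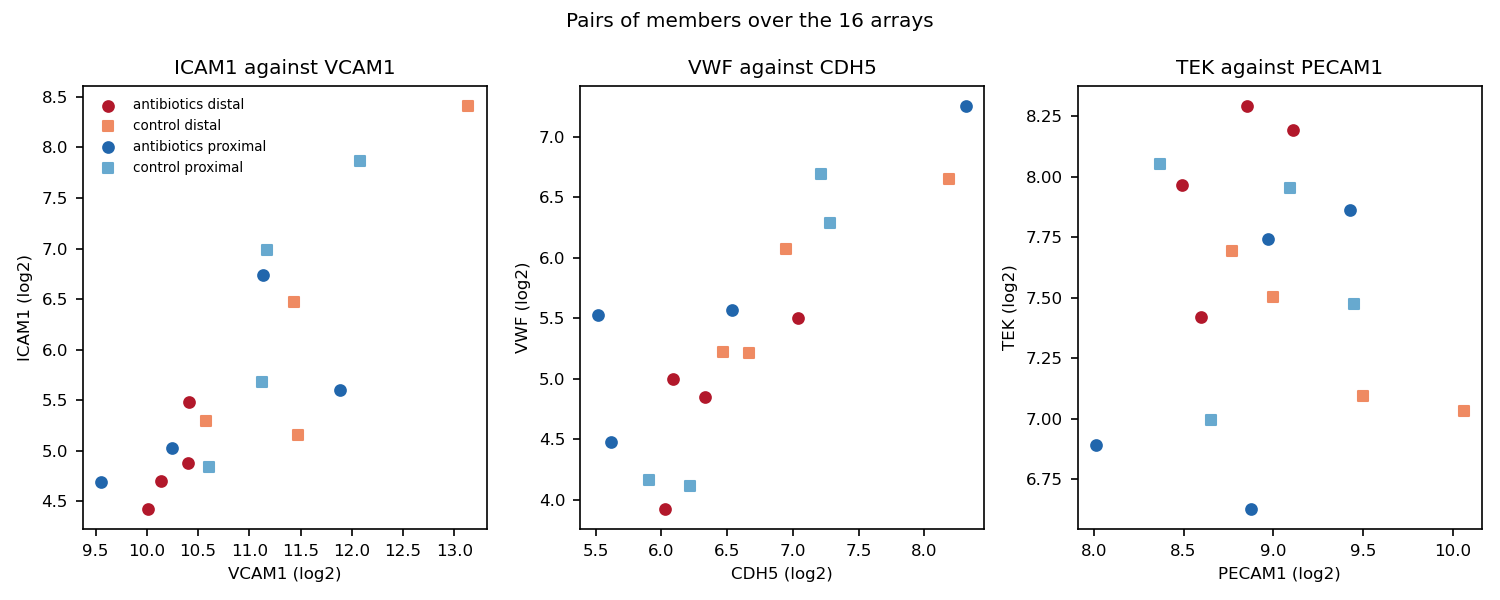
ICAM1 against VCAM1, VWF against CDH5 and TEK against PECAM1 (log2 values on both axes), 1 point per array in the 4 groups. The first pair has r = 0.84 and the second r = 0.84 over 16 arrays; the third has r = -0.06, with -0.61 in distal and 0.35 in proximal arrays.

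The genes most like each member were sought among 4675 other tested genes by Pearson correlation over the same 16 arrays. ERG, a transcription factor of endothelial cells, was among the 4 nearest genes of PECAM1 (r = 0.87), CDH5 (r = 0.84) and VWF (r = 0.77), and it was the nearest to the mean of PECAM1, CDH5, VWF and TEK (r = 0.86). PECAM1 lay nearest to TPR, a protein of the nuclear pore (r = 0.92), and CDH5 to PLAT, the tissue plasminogen activator that endothelium secretes (r = 0.85). ECSCR, a surface protein of endothelium, was second to ERG for VWF (r = 0.76). The basement membrane collagen COL4A2 was on the lists of both CDH5 (r = 0.82) and VWF (r = 0.74).

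The adhesion genes had other neighbours. VCAM1 lay nearest to PTPN2, a phosphatase of cytokine signalling (r = 0.90), and to PROCR, the endothelial protein C receptor (r = 0.85). ICAM1 lay nearest to PDPN, a glycoprotein of lymphatic endothelium and fibroblasts (r = 0.89), and its list also held PTX3, a secreted pentraxin (r = 0.81), and NFKBIA, the inhibitor that NF-kB itself induces (r = 0.80). LYVE1 was closest to PSMA6, a proteasome subunit (r = 0.94), and to MRC1, the mannose receptor of macrophages and lymphatic endothelium (r = 0.93, and 0.90 within groups). AQP1 was closest to CCL25, a chemokine of small intestinal epithelium (r = 0.88, and 0.71 within groups). None of these values carries a test, since the highest of 4675 correlations is high by selection.

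Other genes of the vessel wall were examined as lists. Of 44 further genes of endothelial identity and junctions 29 had a probe set and 15 passed the filter, and 0 of the 15 were called with antibiotics in either segment. Their distal median was -0.27, with a lower mean in 11 of 15, and markers such as KDR, TIE1, CLDN5 and CD34 were among the 14 that were too dim to test. Between segments 1 of the 15 was called, a share near the 5.52% of all tested probe sets. RAMP2, which with CALCRL forms the endothelial receptor for adrenomedullin, fell by 1.21 in distal relative to proximal tissue (SE 0.31, limma adjusted p = 0.0326). RAMP2 averaged 4.58 ± 0.59 in antibiotics distal and 6.03 ± 0.87 in antibiotics proximal tissue, and 4.85 ± 0.64 in control distal and 5.83 ± 0.56 in control proximal tissue (SD, n = 4 each). The distal means of RAMP2, 4.58 and 4.85, lay under the filter level of 5, so the size of its fall is uncertain. RAMP2 shared its direction with AQP1 and, like AQP1, moved together with the segment difference in RNA integrity, whose part in it was not tested.

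Of 31 ligands and receptors of vessel growth 10 were tested, and 1 was called with antibiotics in distal tissue, beside 2.12% of all tested probe sets. EFNB2, the ephrin that marks arterial endothelium and that other cells also make, averaged 5.59 ± 0.32 in antibiotics distal and 7.62 ± 0.71 in control distal tissue (SD, n = 4 each). Its arrays did not overlap, at 5.40 to 6.07 against 6.96 to 8.39, and EFNB2 fell by 2.03 (SE 0.42, limma adjusted p = 0.0193). In proximal tissue it ran from 6.25 to 7.62 in antibiotics arrays, against 6.47 to 8.21 in control arrays, and the effects of the segments did not differ by the adjusted test (-1.64, SE 0.59, adjusted p = 0.56). VEGFB, a ligand of the receptor FLT1, ran the other way in distal tissue, at 9.59 ± 0.37 with antibiotics and 7.98 ± 0.81 in controls (difference 1.61, SE 0.41, adjusted p = 0.0553). It was called between segments, 1.08 higher in distal tissue (SE 0.29, adjusted p = 0.0406). The antibiotics distal group stood apart in this: VEGFB averaged 9.59 in antibiotics distal and 7.73 in antibiotics proximal tissue, but 7.98 in control distal and 7.69 in control proximal tissue. Of the lymphatic list only PDPN and SELENOP passed the filter, and neither was called. PDPN averaged 5.94 ± 0.25 in antibiotics distal and 6.78 ± 0.81 in control distal tissue (difference -0.84, SE 0.38, adjusted p = 0.293). Among 7 genes of mural cells, the smooth muscle and pericytes around vessels, 0 were called with antibiotics.

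**Figure D5:**
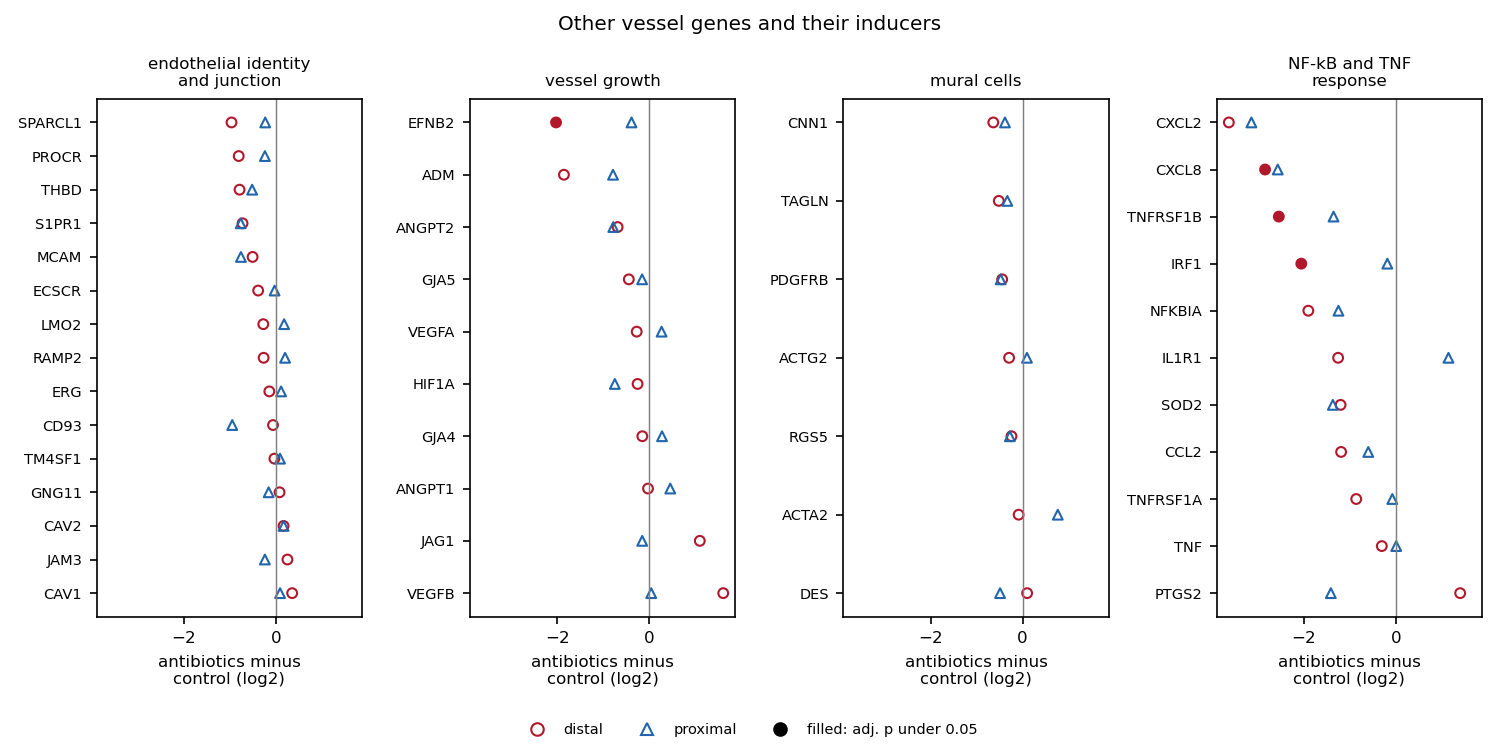
Antibiotics minus control difference (log2, horizontal axes) of the tested genes of 4 lists in distal (red circles) and proximal (blue triangles) tissue; filled symbols passed an adjusted p of 0.05. EFNB2 among the vessel growth genes and TNFRSF1B, IRF1 and CXCL8 among the NF-kB and TNF genes were called, all lower with antibiotics in distal tissue.

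NF-kB induces VCAM1 and ICAM1, and genes of the NF-kB and TNF response were followed as a list, of which 11 of 23 were tested. With antibiotics 3 were called lower in distal tissue and 0 in proximal tissue, where 2.12% and 0.147% of all tested probe sets were called. The medians were alike, at -1.26 in distal and -1.25 in proximal tissue, with a lower mean in 10 and 9 of the 11 genes. Single genes were less alike. IL1R1 differed by -1.26 in distal and 1.14 in proximal tissue, IRF1 by -2.06 and -0.19, and PTGS2 by 1.39 and -1.42. For 0 of 11 did the effect differ between segments by the adjusted test. In distal tissue TNFRSF1B, a receptor for TNF, fell by 2.55 (SE 0.55, limma adjusted p = 0.0247). IRF1, an interferon-induced transcription factor, fell by 2.06 (SE 0.39, adjusted p = 0.0101), and CXCL8, the neutrophil chemokine, fell by 2.85 (SE 0.63, adjusted p = 0.027). Per array, CXCL8 ran from 9.53 to 10.06 in antibiotics distal tissue, against 11.26 to 13.26 in control distal tissue. The inducing cytokines were hardly measurable. TNF stayed near its lowest value of 5.45 in proximal arrays, and ran from 5.45 to 5.61 in antibiotics distal and 5.45 to 6.33 in control distal arrays. IL1B and the subunit gene NFKB1 were too dim to test. SELE, SELP and MADCAM1, further vessel adhesion genes, were also too dim. Of the leukocyte integrins that bind these ligands only ITGB1 passed the filter, and it differed by -0.27 in distal tissue without passing.

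Mean levels of leukocyte markers were lower with antibiotics in both segments. Of 11 annotated macrophage markers 6 passed the filter. Their mean level per array was 5.62 to 6.75 in antibiotics distal and 8.24 to 8.55 in control distal tissue, and 6.48 to 8.17 in antibiotics proximal and 8.02 to 9.03 in control proximal tissue. The proximal markers were split: 4 of 6 had a lower mean with antibiotics, with a median of -0.37. C1QC was not among them, at 9.44 in antibiotics proximal and 9.27 in control proximal tissue, while CD163 averaged 4.81 and 8.58. In distal tissue CD163 fell by 5.00 (limma adjusted p = 0.0056) and C1QC fell by 2.05 (adjusted p = 0.0399), while CD14, MARCO, FCER1G, CD86 and SIGLEC1 were dim. Of 6 neutrophil markers 3 were tested, with a mean level of 4.51 to 5.20 in antibiotics distal and 7.23 to 9.01 in control distal tissue, and 5.02 to 6.29 in antibiotics proximal and 7.32 to 8.78 in control proximal tissue. In distal tissue S100A9 fell by 7.15 and NCF1 fell by 1.43, and in proximal tissue S100A9 fell by 5.79, all past the adjusted threshold. S100A9 ran from 2.28 to 2.39 in antibiotics distal arrays, close to the floor, and from 2.28 to 5.30 in antibiotics proximal arrays. All antibiotics distal arrays of CD163 (3.62 to 4.46) and NCF1 (3.81 to 4.36) lay under the filter level of 5. S100A9, CD163 and NCF1 passed the filter mainly through control arrays, so the sizes of their falls are uncertain. The mean levels did not overlap between treatments for neutrophil markers in either segment or for macrophage markers in distal tissue. These levels include S100A9, NCF1 and CD163, so no conclusion is drawn from the gaps. In proximal tissue S100A9 did not overlap, but the other tested neutrophil markers did. NCF1 ran from 3.74 to 4.87 with antibiotics and 4.13 to 5.73 in controls, and FCGR3A from 7.91 to 9.82 and 9.76 to 10.53. In distal tissue 6.31% of single tested probe sets had every antibiotics array below every control array. No such share is given for proximal tissue or for means over several genes. Limma called 2 of 6 macrophage and 2 of 3 neutrophil markers in distal tissue (background 2.12%). In proximal tissue it called 0 of 6 and 1 of 3 (background 0.147%). These lists were chosen with earlier results of these data known. Macrophages can carry LYVE1, VCAM1 and ICAM1 themselves, and the part of these cells in the lower means of the 3 genes was not tested.

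For the other tissue compartments the mean marker level overlapped between treatments in distal tissue. Most of their markers still had a lower mean with antibiotics there: 8 of 8 for fibroblasts, 6 of 7 for mural cells and 9 of 11 for epithelium (background 49.6%). Their medians were -0.32, -0.30 and -0.14, so a lower mean was not particular to the vessel genes. The mean level of the 11 epithelial markers was 12.52 to 12.70 per array in antibiotics distal and 12.52 to 13.21 in control distal tissue, with 0 called. Single epithelial genes were apart all the same: EPCAM, an epithelial adhesion protein, ran from 13.34 to 13.98 with antibiotics and from 14.11 to 14.66 in controls (difference -0.66, SE 0.29, limma adjusted p = 0.28), and ANPEP, a brush border peptidase, from 10.63 to 11.52 with antibiotics and from 11.89 to 13.11 in controls (difference -1.47, SE 0.52, adjusted p = 0.166). These genes were picked from the 11 for their gap, which 6.31% of all tested probe sets shared in distal tissue. The 8 fibroblast markers averaged 9.67 to 10.42 per array in antibiotics distal and 10.21 to 10.90 in control distal tissue, with 0 called. Mural markers averaged 9.57 to 10.21 in antibiotics distal and 9.69 to 10.67 in control distal tissue. ITGB3, the one platelet marker above the filter, measured 5.47 to 6.74 in antibiotics distal and 6.23 to 6.95 in control distal tissue, while PPBP, GP9 and ITGA2B were too dim to test.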

How the data were processed

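Total RNA of whole tissue was labelled with a 3′ IVT kit and hybridised to an Affymetrix porcine array, per the labels' protocols. The authors deposited GCRMA values on a log2 scale. The submitters' processing notes name GCOS 1.2, GCRMA and limma without settings. Of all values 39.7% lay under 2.5.

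Of 24123 probe sets 124 controls were left out. Probe sets were named from the platform's annotation, with symbols updated by gene ID; 10069 had 1 gene, 198 several and 13732 none. Each gene is represented by its brightest probe set on average. Group means over 16 arrays were fitted with limma 3.58.1 in R 4.3.3 (lmFit, eBayes), with Benjamini-Hochberg adjustment over all 11538 tested probe sets. Animal means were fitted over 3 antibiotics and 4 control animals. The method was tested on simulated data. The number of arrays limits the precision.

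The members and lists were chosen with earlier results of these data known. All member probe sets are given. Of each list, genes called in any comparison and the 3 with the largest moderated t may be named, and for each member except TEK and EGFL7 the 4 genes with the highest correlation (6 for the structural mean). The other sections give some of these. KDR, TIE1, CLDN5, CD34 and other dim genes are named only as not tested, and TNF only for its level. Pairing rests on the numbers in the sample names. Residuals of an animal's segments correlated at 0.0293 to 0.526, above 0.1 in 5 of 7 animals. The proximal array that best matched a distal array was the animal's own for piglets 83, 88, 92 and 95, but not for 86, 87 and 89. Alternatives are given at the end.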

Additional observations from a re-analysis of the deposited data

Results flagged for a closer look

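Of 40 sets of 4 arrays, 1 for each tested member probe set and group, 2 had an array far from the other 3, and chance gives about 1 in 20. EGFL7 measured 6.40 on the antibiotics proximal array of piglet 87, against 6.19 on the other antibiotics proximal arrays, which all sat at the lowest value of that probe set. AQP1 measured 7.98 on the antibiotics distal array of piglet 87, against 7.30 to 7.35 on the other antibiotics distal arrays. Without that array the antibiotics distal minus control distal difference of AQP1 was -0.62, against -0.46 with it, and neither passed.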

How the results depend on the processing

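The 4 arrays per group limit every comparison, and the genes at the floor could not be measured. With antibiotics, the count of called member probe sets was 0 in every setting but the following. With array quality weights it was 1 in distal tissue (VCAM1, -1.20, limma adjusted p = 0.0358) and 1 in proximal tissue (LYVE1, -1.47, adjusted p = 0.0442), where 14.4% and 8.24% of all tested probe sets were called. On animal means it ranged from 0 to 1 when 1 animal was left out, with LYVE1 at -1.53 (adjusted p = 0.0481) without control animal 88. Over the settings other than leaving out an array, the adjusted p of VCAM1 in distal tissue ran from 0.0358 to 0.42.

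Between segments the count of 1 (AQP1) became 0 in 6 settings: no filter on dim probe sets (adjusted p = 0.0585), a replicate block over 7 paired animals (-1.13, adjusted p = 0.0698), control arrays alone (-0.78, adjusted p = 0.648), only animals with both segments (adjusted p = 0.0563), RNA integrity as a covariate (-0.89, adjusted p = 0.108) and without the control distal arrays of piglets 83 and 88 (-1.14, adjusted p = 0.0515). AQP1 was called in the 9 other settings and in all 16 fits that left out 1 array. A random replicate block (correlation 0.172) changed no call of a member, with VCAM1 at -1.37 in distal tissue.

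Directions turned only in proximal tissue, for differences that never passed. PECAM1 was 0.0043 and VWF -0.18 with array quality weights, and PECAM1 was 0.11 as the mean of its probe sets. Leaving out 1 array gave -0.27 to 0.20 for PECAM1, -0.76 to 0.17 for CDH5, -0.12 to 0.85 for VWF and -0.056 to 0.63 for AQP1. The cause was not tested.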

Other observations

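Outside the vessel genes, PTGS2 and APOA4 were among the list genes called between the segments, where 5.52% of all tested probe sets were called. PTGS2, the inducible cyclooxygenase, ran from 6.51 to 8.35 in antibiotics distal arrays, against 2.21 to 4.33 in antibiotics proximal arrays, and from 4.76 to 6.93 in control distal arrays, against 2.41 to 6.79 in control proximal arrays. It was 2.60 higher in distal tissue (SE 0.53, limma adjusted p = 0.00822), the direction opposite to AQP1. All antibiotics proximal arrays of PTGS2 lay under the filter level of 5, so the size of this difference is uncertain. APOA4, an apolipoprotein of absorbing enterocytes, averaged 9.67 ± 0.70 in antibiotics distal and 12.68 ± 0.51 in antibiotics proximal tissue, and 11.12 ± 1.09 in control distal and 11.43 ± 0.77 in control proximal tissue (SD, n = 4 each). APOA4 differed by -1.66 (SE 0.36, adjusted p = 0.0125), the same direction as AQP1 and RAMP2. RNA integrity also differed between the segments, and its part in the differences of PTGS2 and APOA4 was not tested.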
